A study of Mus musculus with 4 samples.

Results

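Fibroblast growth factor (FGF) ligand and receptor genes of the hair cycle were followed in dermal white adipose tissue (dWAT), the fat layer around the lower ends of the hair follicles (HFs). The set was chosen by name and held 10 of the 22913 genes in the files, 7 ligands (Fgf1, Fgf2, Fgf5, Fgf7, Fgf10, Fgf18 and Fgf22) and 3 receptors (Fgfr1, Fgfr2 and Fgfr3). Each symbol matched 1 Ensembl identifier. The study asked how aging alters dWAT over the hair cycle and sequenced RNA of microdissected dWAT from C57BL/6 mice. The tissue came from 20 mice per group, how it was pooled is not given in the sources used here, and each group was analysed as 1 library. The groups were OTD (old mice of 18 months, telogen), YTD (young mice of 2 months, telogen), OAD (old mice of 18 months, anagen) and YAD (young mice of 2 months, anagen). Telogen is the resting and anagen the growing phase of the follicle, and anagen had been induced by depilation, so that hair cycle phase and depilation cannot be told apart. The age tags of YTD (18 months) and OAD (2 months) contradicted their titles, and the ages of the titles and the treatment text were used. With 1 library per group there was no replicate error and no test between groups.

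FGFs are signaling proteins that bind receptor tyrosine kinases together with heparan sulphate on the cell surface. Binding activates the RAS and MAPK relay, which switches on ETV transcription factors and inhibitors of the pathway itself, among them the Sprouty, Spred and DUSP proteins. In skin, FGF7 and FGF10 are made by mesenchymal cells and act on epithelial cells through a splice form of FGFR2, while FGF5 is known as the signal that ends anagen, and mice without it grow long hair. FGF18 is known from the telogen follicle, and FGF22 from the inner root sheath.

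The promoters are shown for the 4 members that were higher in anagen by at least 1 in log2(FPKM + 1) in both ages (Fgf5, Fgf22, Fgfr2 and Fgfr3) and for the ligand pair Fgf7 and Fgf10, which were lower in OAD than in YAD. Each run is the 250 bases before a RefSeq start site on GRCm38.p6, read along the gene. These were chr5:98253934-98254183 on the + strand for Fgf5, chr10:79754859-79755108 on the + strand for Fgf22, chr7:130266809-130267058 on the - strand for Fgfr2, chr5:33721474-33721723 on the + strand for Fgfr3, chr2:126034408-126034657 on the + strand for Fgf7 and chr13:118714449-118714698 on the + strand for Fgf10. Capitals mark the GC box (GGGCGG) and the CCAAT box (CCAAT) on either strand.
Fgf5: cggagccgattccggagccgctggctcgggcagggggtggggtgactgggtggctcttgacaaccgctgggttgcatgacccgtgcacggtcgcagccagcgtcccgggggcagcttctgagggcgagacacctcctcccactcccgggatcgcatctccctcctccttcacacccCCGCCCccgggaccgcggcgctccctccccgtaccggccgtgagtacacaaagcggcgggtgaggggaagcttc
Fgf22: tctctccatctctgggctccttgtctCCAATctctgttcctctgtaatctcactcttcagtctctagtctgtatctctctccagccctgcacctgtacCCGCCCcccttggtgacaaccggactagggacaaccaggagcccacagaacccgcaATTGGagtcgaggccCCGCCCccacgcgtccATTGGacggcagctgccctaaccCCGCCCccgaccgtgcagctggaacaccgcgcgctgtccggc
Fgfr2: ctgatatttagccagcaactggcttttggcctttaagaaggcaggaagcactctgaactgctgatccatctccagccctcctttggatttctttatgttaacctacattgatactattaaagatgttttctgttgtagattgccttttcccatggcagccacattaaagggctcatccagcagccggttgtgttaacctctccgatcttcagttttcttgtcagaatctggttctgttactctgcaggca
Fgfr3: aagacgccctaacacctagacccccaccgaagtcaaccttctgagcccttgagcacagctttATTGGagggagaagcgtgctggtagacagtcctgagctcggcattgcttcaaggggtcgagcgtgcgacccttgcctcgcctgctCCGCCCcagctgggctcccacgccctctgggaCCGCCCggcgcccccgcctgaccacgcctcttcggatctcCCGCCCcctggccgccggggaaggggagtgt
Fgf7: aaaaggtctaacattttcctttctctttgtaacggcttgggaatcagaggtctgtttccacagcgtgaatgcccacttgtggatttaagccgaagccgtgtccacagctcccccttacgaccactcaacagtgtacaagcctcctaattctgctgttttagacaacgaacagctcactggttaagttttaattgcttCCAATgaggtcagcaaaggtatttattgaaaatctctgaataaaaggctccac
Fgf10: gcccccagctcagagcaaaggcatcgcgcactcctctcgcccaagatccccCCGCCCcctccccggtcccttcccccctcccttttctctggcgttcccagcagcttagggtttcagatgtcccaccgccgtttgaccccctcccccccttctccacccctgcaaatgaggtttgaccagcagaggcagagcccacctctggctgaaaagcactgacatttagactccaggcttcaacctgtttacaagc

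Among the members that were high in anagen, the window of Fgfr2 differed from those of Fgf5, Fgf22 and Fgfr3. The runs of Fgf5, Fgf22 and Fgfr3 were rich in G and C (70.8%, 62.4% and 66.8%), against a median of 52.4% over 32851 promoter windows of this length. They held 24, 15 and 19 CpG, against a median of 6. The Fgfr2 run had 44.0% G and C and 2 CpG, and none of the 5 motifs searched. The Fgf5 run held 1 GC box, the Fgf22 run held 3 GC boxes and 3 CCAAT boxes, and that of Fgfr3 held 3 GC boxes and 1 CCAAT box. Among all windows 32.7% held a GC box and 33.8% a CCAAT box. The TATA box (TATAAA), the AP-1 motif (TGANTCA) and the TCF/LEF motif (CTTTGA), found on either strand in 12.4%, 6.75% and 13.8% of all windows, were not in these letters of the shown windows. The motifs overlapped nowhere in the shown runs, and a match describes letters, not a site. Of the 10 members, 8 had a promoter in the RefSeq table.

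Values were FPKM, fragments of a gene scaled to its length and to all mapped fragments. The lowest values stepped in units of 1 fragment, which gave depths of 16900000 to 22700000 fragments per library. Mitochondrially encoded genes took 52.7% and 44.7% of the summed FPKM in OTD and YTD and 18.3% and 14.4% in OAD and YAD. Of the adipocyte markers, led by Cfd and Fabp4, all 10 were at or above 1 FPKM in all 4 libraries. That bar is low and does not give the share of fat in the tissue. Adipocyte markers summed to 7884 and 6530 FPKM in OTD and YTD and to 2747 and 1919 FPKM in OAD and YAD. Skeletal muscle markers summed to more in each library, 49811 and 76688 FPKM in OTD and YTD and 12104 and 8919 FPKM in OAD and YAD. Ratios of FPKM are given with 95% exact counting intervals, which cover counting error only and not differences between mice. A value worth 3 fragments was the floor. Differences are of log2(FPKM + 1), with the first library minus the second, and a gene was counted as past the fold at 1 or more in size. This scale understates the difference of genes with a low FPKM.

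Fgf5 and Fgf22 were anagen ligands in these libraries. Fgf5 (ENSMUSG00000029337) was at 0.506 FPKM in OTD and 0.490 in YTD, and at 10.8 in OAD and 4.78 in YAD. The telogen libraries did not differ by more than counting error, both anagen libraries were higher, and OAD was highest. Fgf22 (ENSMUSG00000020327) was listed at 0 in OTD, which allows up to 0.638 FPKM, and was at 0.253 FPKM in YTD, with 30.3 in OAD and 23.4 in YAD. The YTD value was worth about 1 fragment, so Fgf22 was not detected above the floor in telogen. In OAD and YAD it had the highest FPKM of the 18 secreted ligand genes measured, a rank that depends on the length behind its FPKM. No annotated transcript matched its listed coding length of 489 bases. At that length its OAD and YAD values were worth about 178 and 143 fragments, against 538 and 247 for Fgf5.

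Fgf7 and Fgf10 are close relatives that signal to keratinocytes. Fgf7 (ENSMUSG00000027208) was at 8.40 FPKM in OTD and 3.82 in YTD, and at 2.13 in OAD and 5.35 in YAD. Its order was OTD, YAD, YTD and OAD, and the counting intervals of all 3 neighbouring pairs left out 1. Fgf10 (ENSMUSG00000021732) was at 0.878 FPKM in OTD and 0.845 in YTD, and at 1.05 in OAD and 2.44 in YAD. Only YAD stood above the other libraries for Fgf10, while the intervals between OAD and OTD (0.848 to 1.68) and between OTD and YTD (0.707 to 1.52) held 1.

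Fgf1 and Fgf2, which lack a classical signal peptide, were telogen ligands here. Fgf1 (ENSMUSG00000036585) was at 13.4 FPKM in OTD and 12.2 in YTD, and at 4.0 in OAD and 2.36 in YAD. It had the highest FPKM of the 18 secreted ligand genes in OTD and YTD, a rank that depends on the length behind its FPKM. Its matched transcripts ran from 699 to 3981 bases. At the shortest, its OTD and YTD values were worth about 112 and 98.8 fragments, against 304 and 133 for Fgf7. Fgf2 (ENSMUSG00000037225) was at 4.91 FPKM in OTD and 3.40 in YTD, and at 1.54 in OAD and 1.36 in YAD. Both genes had the same order of libraries, with telogen above anagen and old above young, but the intervals held 1 for Fgf1 between OTD and YTD and for Fgf2 between OAD and YAD, where rescaling to TPM turned the Fgf2 difference to -0.04. Fgf2 overlaps Nudt6 on the other strand, which was at 12.9, 15.8, 5.31 and 4.35 FPKM in the same libraries, and without a stated strand setting reads from the overlap cannot be assigned. The same holds for Fgf1, whose listed span overlaps Arhgap26 on the other strand, at 2.59, 2.28, 0.741 and 0.953 FPKM. Fgf18 (ENSMUSG00000057967) was at 1.16 FPKM in OTD and 0.612 in YTD, and at 0.656 in OAD and 0.608 in YAD, worth about 8.95 to 17.6 fragments, and none of its neighbouring pairs differed beyond counting error.

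**Figure D1:**
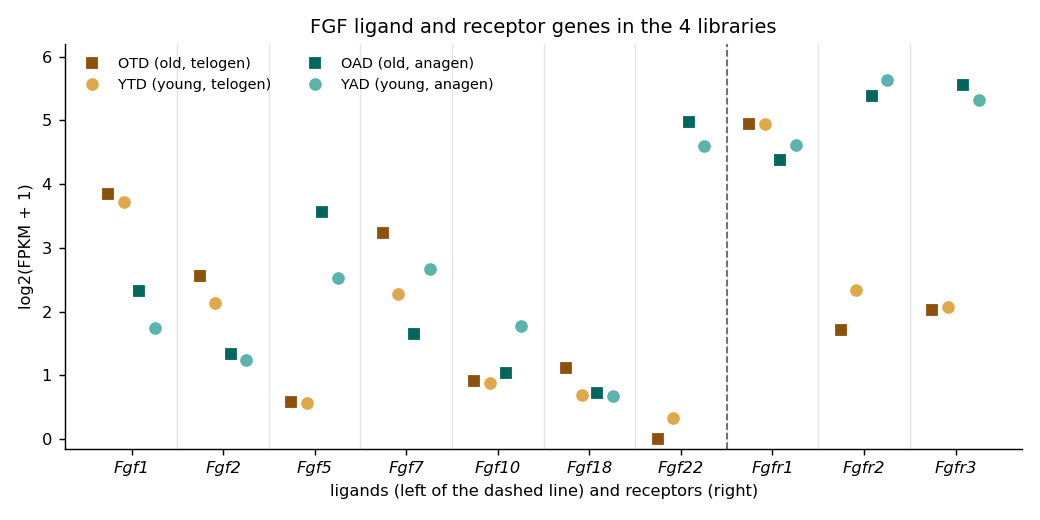
Level of each FGF ligand and receptor gene, as log2(FPKM + 1), in the 4 libraries, with 1 point per library and no error bars because each group had 1 library. Fgf5, Fgf22, Fgfr2 and Fgfr3 were higher in OAD and YAD than in OTD and YTD, and Fgf1 and Fgf2 were lower.

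The receptors differed in their relation to the hair cycle. Fgfr1 (ENSMUSG00000031565), the receptor best known from mesenchymal cells, was at 29.9 FPKM in OTD and 29.8 in YTD, and at 19.8 in OAD and 23.6 in YAD. It spanned 0.57 on the log2 scale over the 4 libraries, the least of the 3 receptors. Fgfr2 (ENSMUSG00000030849), the receptor of FGF7 and FGF10 in epithelium, was at 2.29 FPKM in OTD and 4.05 in YTD, and at 40.6 in OAD and 48.7 in YAD. Fgfr3 (ENSMUSG00000054252) was at 3.08 FPKM in OTD and 3.20 in YTD, and at 46.0 in OAD and 38.8 in YAD. Both were low in OTD and YTD and high in OAD and YAD. Splice forms of the receptors were not resolved in these gene values. The listed span of Fgfr2 (chromosome 7, 130162451 to 133123350, - strand) overlaps 30 other genes in the files, and how reads in shared stretches were assigned is not given in the sources used here.

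The make-up of the receptor signal turned over with the phase. Of the summed FPKM of the 4 receptor genes, Fgfr1 held 82.1% in OTD and 77.7% in YTD, against 18.6% in OAD and 21.2% in YAD. Fgfr2 held 6.3% and 10.5% in telogen and 38.1% and 43.7% in anagen, and Fgfr3 held 8.4% and 8.3% in telogen and 43.1% and 34.9% in anagen. Fgfr4 was between 0.1% and 3.4%. Within a library these shares do not depend on the scaling between libraries. The ratio of Fgfr2 to Fgfr1 was 0.0766 in OTD and 0.136 in YTD and 2.05 and 2.06 in OAD and YAD. Ages differed less than phases in this ratio.

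The ligands turned over as well. Of the summed FPKM of 18 secreted ligand genes, Fgf1 held 41.5% in OTD and 52.2% in YTD, with Fgf7 next at 26.1% and 16.4%. The doubt about the length of Fgf1 given above holds here too. In OAD and YAD, Fgf22 held 57.8% and 56.2%, with the doubt about its length given above. Behind Fgf22 stood Fgf5 with 20.6% in OAD, and Fgf7 with 12.9% and Fgf5 with 11.5% in YAD. The ratio of Fgf5 to Fgf7 within a library was 0.0602 in OTD and 0.128 in YTD, against 5.07 in OAD and 0.892 in YAD. Fgf5 thus exceeded Fgf7 per length in OAD and was below it in OTD and YTD. In YAD they were close, at about 247 and 251 fragments, and no interval was computed for this ratio.

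**Figure D2:**
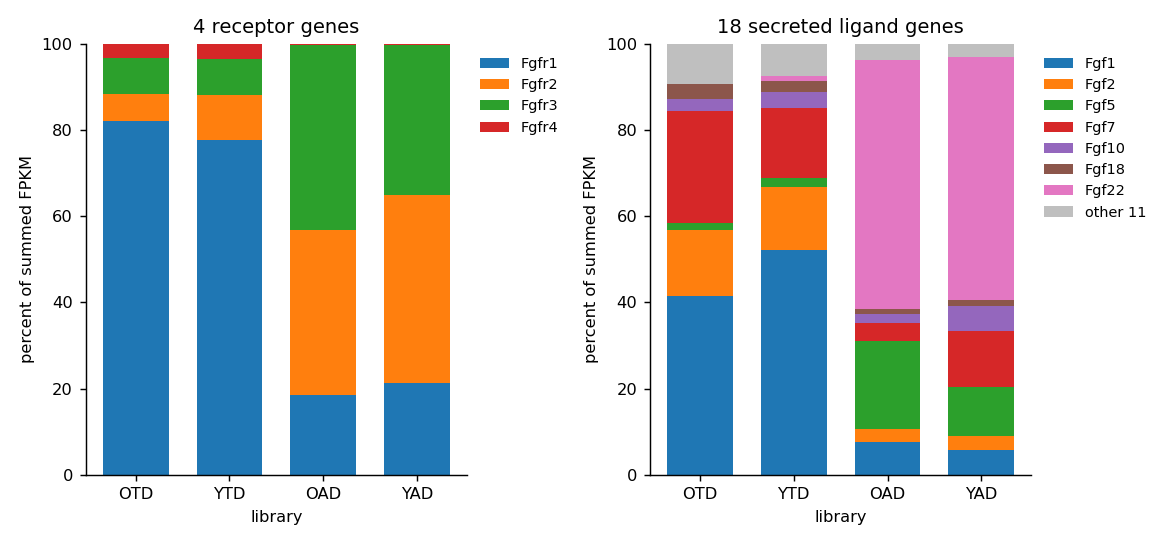
Share of each gene in the summed FPKM of the 4 receptor genes (left) and of the 18 secreted ligand genes (right), in percent, with 1 bar per library. Fgfr1 held 82.1% and 77.7% of the receptor sum in OTD and YTD, and Fgf22 held 57.8% and 56.2% of the ligand sum in OAD and YAD.

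In telogen, old dWAT had more Fgf7 and less Fgfr2 than young dWAT. Fgf7 was 2.20-fold higher in OTD than in YTD (interval 1.79 to 2.73), a log2 difference of 0.96. Fgfr2 was 1.77-fold lower (1.41 to 2.23), a log2 difference of -0.62. Fgf2 was 1.45-fold higher (1.04 to 2.08), with the doubt about Nudt6 given above, and Fgf18 1.90-fold higher, with an interval from 0.824 to 4.88 that holds 1. The intervals of Fgf1, Fgf5, Fgf10, Fgfr1 and Fgfr3 held 1 too, and both Fgf22 values were under the floor. None of the 10 members was past the fold, against 3.6% of 17230 genes and 4.78% of the 12982 with at least 1 FPKM in OTD or YTD. The median difference was 0.02 over the members and -0.03 over all genes. Fgf7 was the member nearest to the fold, and it passed it at 1.10 when the libraries were rescaled after leaving out mitochondrial, muscle and hair genes.

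Several cell types moved with age in telogen too. Fibroblast markers, led by Dcn and Dpt, had a median difference of 0.35, with 8 of 10 higher in OTD, 2 of them past the fold, and their summed FPKM was 1579 in OTD and 1136 in YTD. Smooth muscle markers were higher in OTD in 4 of 4, led by Tagln and Acta2, at 500.2 FPKM summed against 238.4, and endothelial markers in 8 of 8, with a median of 0.62 and sums of 455 and 294 FPKM. Skeletal muscle markers were lower in OTD in 8 of 8, with a median of -0.63. Hair matrix and shaft markers, led by Krt83 and Krt33a, were lower in 12 of 12, at 37.8 FPKM summed against 111. Inner root sheath markers, led by Krt71 and Tchh, were lower in 9 of 9, at 249.8 against 405 FPKM summed. None of these markers was at 0 in OTD or YTD. Their part in the Fgf7 and Fgfr2 values was not tested, and in bulk tissue fewer cells of a type cannot be told apart from less RNA per cell.

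In anagen, old dWAT had more Fgf5 and less Fgf7 and Fgf10. Fgf5 was 2.26-fold higher in OAD than in YAD (1.95 to 2.65), a log2 difference of 1.03. Fgf7 was 2.51-fold lower (1.98 to 3.21), a log2 difference of -1.02, and Fgf10 2.32-fold lower (1.80 to 3.01), a log2 difference of -0.75. Fgf7 and Fgf5 were thus the 2 members past the fold, against 1.18% of 17613 genes and 1.59% of the 13068 with at least 1 FPKM in OAD or YAD. The median difference was 0.07 over the members. Fgf5 lay just past the fold and fell to 0.85 with the libraries rescaled to TPM (the median of all genes was then -0.16) and to 0.92 with mitochondrial, muscle and hair genes left out. Fgf7 stayed past it under each alternative tried, between -1.32 and -1.01.

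The remaining members differed less between the ages in anagen. Fgf1 was 1.69-fold higher in OAD (1.01 to 2.86) and Fgf22 1.30-fold higher (1.03 to 1.63). Among the receptors, Fgfr3 was 1.19-fold higher (1.13 to 1.24), Fgfr2 1.20-fold lower (1.14 to 1.26) and Fgfr1 1.19-fold lower (1.12 to 1.26). These receptor differences were small, and their narrow intervals reflect some 2083 to 3810 fragments per value. The intervals do not cover the scaling between libraries. Rescaled to TPM, the log2 difference of Fgfr3 went from 0.24 to 0.01, of Fgf22 from 0.36 to 0.14 and of Fgf1 from 0.57 to 0.42. That of Fgfr2 went from -0.25 to -0.48 and that of Fgfr1 from -0.24 to -0.47. Fgf2 and Fgf18 had intervals that held 1.

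**Figure D3:**
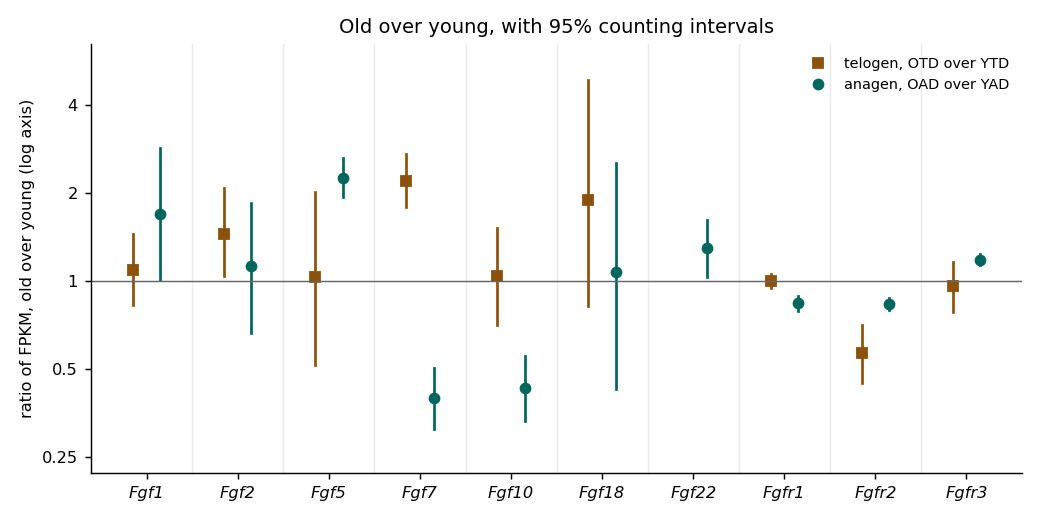
Ratio of FPKM in old over young dWAT for each member, on a log axis, in telogen (squares) and anagen (circles), with 95% exact counting intervals as lines. Fgf7 lies above 1 in telogen (2.20) and below 1 in anagen (0.398), and Fgf22 has no telogen point because both values were under the floor.

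Fibroblast markers went the same way as Fgf7 and Fgf10 in anagen. Of 10 markers 9 were lower in OAD, 3 past the fold, with a median of -0.58 and a summed FPKM of 220.5 in OAD and 430.2 in YAD. Dermal papilla markers, which include Wif1 and Crabp1 and mark the mesenchymal signaling centre of the follicle, were lower in 6 of 7 with a median of -0.17, at 52.0 and 59.8 FPKM summed. Adipocyte markers were higher in OAD in 10 of 10, at 2747 against 1919 FPKM summed, but in 6 of 10 after rescaling to TPM. Inner root sheath markers, the compartment FGF22 is known from, were higher in 8 of 9, with a median of 0.71 and sums of 18935 and 12509 FPKM. Outer root sheath and bulge markers, led by Krt17 and Krt75, were higher in 5 of 7, with a median of 0.16 that turned to -0.07 with TPM. Hair matrix and shaft markers were lower in 9 of 12, with a median of -0.16 and sums of 11710 and 12084 FPKM. Epidermis markers were higher in 5 of 6, with 1 higher and 1 lower past the fold. No marker of these lists was at 0 in OAD or YAD. What these cell types contributed to Fgf5, Fgf7 and Fgf10 was not tested.

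The largest differences of the set were between the phases. In young mice, Fgfr2 was 12.0-fold higher in YAD than in YTD (10.5 to 13.9), Fgfr3 12.1-fold (10.5 to 14.0) and Fgf5 9.74-fold (6.07 to 16.4). Fgf22 was 92.4-fold higher, with an interval of 18.8 to 4234 because the YTD value was worth about 1 fragment and lay under its floor of 0.660 FPKM. Fgf10 was 2.88-fold higher (2.12 to 3.91) and Fgf7 1.40-fold (1.13 to 1.75), both short of the fold. Fgf1 was 5.17-fold lower in YAD (3.29 to 8.21) and Fgf2 2.49-fold lower (1.55 to 3.87), the latter short of the fold at -0.90. Thus 5 of 10 members were past the fold, 4 higher and 1 lower, where 32.7% of 17622 genes were. Among the 13738 genes with at least 1 FPKM in YAD or YTD the share was 42.0%. Rescaled to TPM, 6 members were higher and 1 lower, with Fgf1 at -1.29 and Fgf2 at -0.33. Of all genes, 5865 were then higher past the fold and 1260 lower, together 40.4%.

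In old mice, Fgfr2 was 17.7-fold higher in OAD than in OTD (14.9 to 21.5), Fgfr3 15.0-fold (13.0 to 17.3), Fgf5 21.4-fold (13.8 to 35.6) and Fgf22 at least 47.5-fold, against a floor of 3 fragments in OTD. That bound and the ratio of Fgf22 in young mice are not comparable. Lower in OAD were Fgf7 by 3.94-fold (3.13 to 5.02), Fgf1 by 3.35-fold (2.31 to 4.86) and Fgf2 by 3.19-fold (2.15 to 4.94). Fgf10 did not differ beyond counting error (0.848 to 1.68). In all, 7 of 10 members were past the fold, 4 higher and 3 lower, where 31.7% of 17712 genes were. Among the 13847 genes with at least 1 FPKM in OAD or OTD the share was 40.5%. Rescaled to TPM, 4 members were higher and 1 lower, because Fgf1 and Fgf2 came to -0.98 and -0.77. Of all genes, 4895 were then higher past the fold and 1486 lower, together 36.0%. Both phase comparisons share their libraries with the age comparisons, so they are not independent of them.

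Fgf7 was higher in anagen than in telogen in young mice (log2 difference 0.40) and lower in old mice (-1.59), under each alternative tried. Fgfr1 was 1.26-fold lower in YAD than in YTD (1.19 to 1.33) and 1.51-fold lower in OAD than in OTD (1.42 to 1.60), but rescaled to TPM these directions turned, to log2 differences of 0.49 and 0.02.

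**Figure D4:**
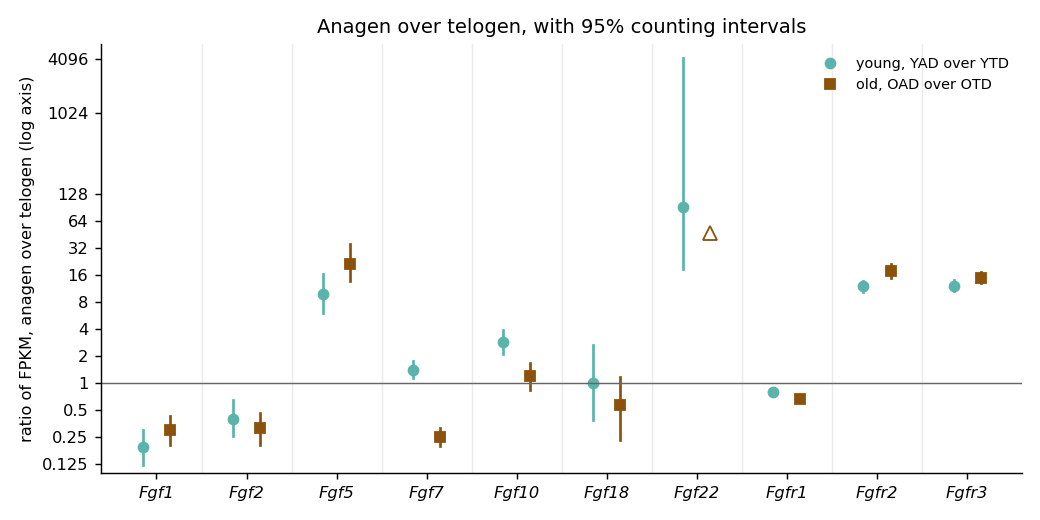
Ratio of FPKM in anagen over telogen for each member, on a log axis, in young (circles) and old (squares) mice, with 95% exact counting intervals as lines. The open triangle is the lower bound of Fgf22 in old mice (47.5), and Fgfr2 and Fgfr3 lie at 12.0 and 12.1 in young and at 17.7 and 15.0 in old mice.

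Epithelial and dermal papilla markers of the follicle mostly had the same direction between phases as Fgf5, Fgf22, Fgfr2 and Fgfr3. Inner root sheath markers were past the fold in 9 of 9 in both ages, with summed FPKM of 249.8 and 405 in OTD and YTD and of 18935 and 12509 in OAD and YAD. Hair matrix and shaft markers were past it in 12 of 12, from 37.8 and 111 to 11710 and 12084 FPKM summed. Outer root sheath and bulge markers were higher past it in 6 of 7, from 43.9 and 67.1 to 1645 and 1275. Nfatc1 of that list went the other way and was lower past the fold, at -1.80 in young and -1.73 in old mice. The mesenchymal markers of the dermal papilla were past it in 6 of 7 in both ages, from 2.77 and 3.35 to 52.0 and 59.8 FPKM summed. Epidermis markers, led by Krt5 and Krt14, were past it in 4 of 6 in young and 3 of 6 in old mice, and the epidermal keratin Krt1 was listed at 0 in YTD and under 1 FPKM elsewhere. With Fgf1 and Fgf2 went adipocyte markers, lower past the fold in 9 of 10 in young and 8 of 10 in old mice, and endothelial markers, led by Egfl7 and Pecam1, in 8 of 8 in both. With TPM these counts were 4 of 10 in both ages for adipocytes and 2 of 8 and 6 of 8 for endothelium. Fibroblast markers were lower past the fold in 8 of 10 in young and 9 of 10 in old mice, with medians of -1.12 and -2.75, and macrophage markers in 7 of 8 in both ages. The fibroblast marker Dpp4 went the other way and was higher past the fold, at 1.51 in young and 1.18 in old mice. Skeletal muscle markers, led by Acta1 and Ckm, were lower past the fold in 8 of 8 in both. The part of these cell types in the members' values was not tested.

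Other FGF family genes were mostly low. Of the 15 other ligand genes, Fgf13, an intracellular FGF homologous factor that does not act through FGF receptors, had the highest mean, at 22.0 FPKM in OTD and 32.4 in YTD, and at 3.12 in OAD and 2.84 in YAD. It was past the fold between the phases in both ages. Fgf11, which is of the same kind as Fgf13, came next by mean, at 1.78 to 3.08 FPKM over the libraries. Fgf9, known from hair regrowth in wounds, was at 1.80, 0.669, 0.313 and 0.0146 FPKM in OTD, YTD, OAD and YAD and was past the fold only from OTD to OAD. Rescaled to TPM, this Fgf9 difference fell inside the fold. Fgf21, the endocrine FGF of liver and fat, was at 0.301 FPKM in OTD and 0 in YTD, and at 0.847 in OAD and 0.625 in YAD. The Fgf21 values rest on few fragments, and its interval held 1 in every comparison. No other ligand was past the fold with age in either phase.

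Among receptors and binding proteins outside the set, Fgfbp1, a carrier that releases FGFs from the matrix, was at 0.286 FPKM in OTD and 0.405 in YTD, and at 13.9 in OAD and 13.6 in YAD. Its log2 difference between phases was 3.37 in young and 3.53 in old mice. The telogen values of Fgfbp1 rest on few fragments, with an interval of OTD over YTD from 0.106 to 4.28. Fgfrl1, a receptor without a kinase domain, was at 25.6, 30.8, 13.0 and 9.93 FPKM and was past the fold, lower in YAD than in YTD. Rescaled to TPM, this Fgfrl1 difference fell inside the fold. Fgfr4 stayed between 0.145 and 1.32 FPKM and Fgfbp3 between 2.10 and 4.70. None of the 6 genes was past the fold with age.

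Heparan sulphate genes, whose products help FGFs bind their receptors, went in both directions between the phases. In young mice 3 of 17 were higher and 3 lower past the fold in anagen, and in old mice 3 were higher and 4 lower, shares near the 32.7% and 31.7% of all genes past the fold. The higher ones were the syndecans Sdc1 (18.2 and 17.8 FPKM in OTD and YTD, 195.7 and 168 in OAD and YAD) and Sdc4 and the sulfatase Sulf2. Sulf1, the other sulfatase that trims heparan sulphate, was lower, at 15.1 and 12.9 FPKM in telogen and 2.65 and 2.67 in anagen. Lower in addition were Sdc3 in both ages, the glypican Gpc1 in young mice, and Sdc2 and the glypican Gpc3 in old mice. Rescaling to TPM raised ratios of anagen over telogen by 0.84 in young and 0.62 in old mice on the log2 scale. Of the lower genes only Sulf1 then stayed past the fold. With age none of the 17 was past the fold in either phase.

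The signal relay between receptor and nucleus mostly stayed within the fold. Of 19 genes, Hras was the only one past the fold with age, at 51.2 FPKM in OTD and 109.7 in YTD. That value fell inside the fold when mitochondrial, muscle and hair genes were left out before rescaling. Between phases, the kinase gene Braf was past the fold in both ages, at 3.01 and 2.74 FPKM in OTD and YTD and 13.6 and 14.0 in OAD and YAD. Pik3r1, a regulatory subunit of PI3 kinase, was lower past the fold in both ages, and Hras was higher in old mice. Rescaled to TPM, 7 of 19 in young and 6 of 19 in old mice were higher past the fold and none lower, where 5865 of 17622 and 4895 of 17712 of all genes were higher past it.

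The targets and feedback inhibitors of the pathway that were past the fold between phases were all higher in anagen. These were 6 of 15 in young and 3 of 15 in old mice, against 16.1% of all genes higher past the fold in each age. Among genes with at least 1 FPKM in a compared library, 2829 of 13738 in young and 2854 of 13847 in old mice were higher past it. The count in old mice was near these shares. Etv4, an ETS factor switched on by FGF signals, was at 0.949 FPKM in OTD and 1.34 in YTD, and at 11.7 in OAD and 22.5 in YAD. Dusp5, a nuclear phosphatase of ERK, was at 1.71, 1.40, 28.4 and 19.3 FPKM, and Flrt3, a membrane partner of FGF receptors, at 1.21, 1.47, 20.5 and 18.8 FPKM. These 3 genes were past the fold in both ages. Dusp6, Spred2 and Cbl, which restrain the pathway, were past it in young mice, with log2 differences of 1.47, 1.05 and 1.11, and at 0.70, 0.73 and 0.82 in old mice. Within the fold, 2 of 15 were lower in YAD and 4 of 15 in OAD, among them Il17rd, at 2.41 FPKM in OTD and 0.878 in OAD (ratio 0.365, interval 0.241 to 0.539).

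With age, no target or feedback gene was past the fold. In telogen 11 of 15 were higher in OTD, with a median difference of 0.16, led by Dusp6 at 15.8 against 8.92 FPKM. In anagen the median was -0.16 and 12 of 15 were lower in OAD, led by Etv4 at a log2 difference of -0.88. Exceptions in anagen were Dusp5, Flrt3 and Dusp4, which were higher in OAD. The number lower in anagen was 10 of 15 with the median of ratios and 14 of 15 with TPM, where Etv4 passed the fold. Medians of all genes were -0.03 in telogen and 0.00 in anagen.

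**Figure D5:**
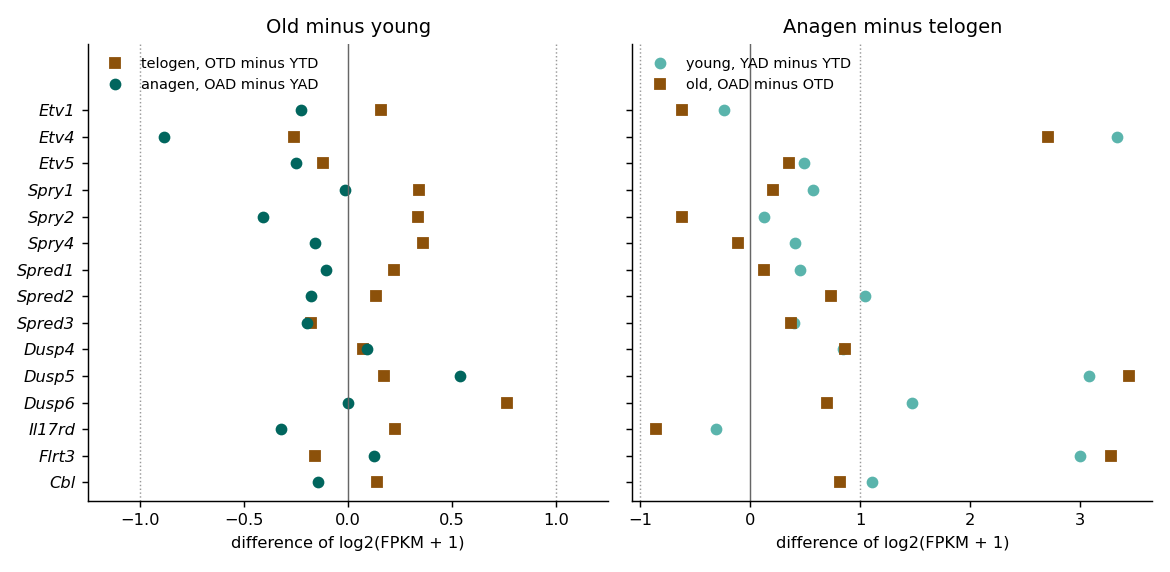
Difference of log2(FPKM + 1) of 15 targets and feedback genes of FGF signaling, old minus young (left) and anagen minus telogen (right), with 1 point per gene and comparison and dotted lines at 1 in size. Etv4 is lowest with age in anagen (-0.88), and Etv4, Dusp5 and Flrt3 lie past the fold between phases in both ages.

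Genes with the profile most like that of each member were sought over the 4 libraries among 12353 genes with a mean of at least 1 FPKM, by the root mean square distance of the centred log2(FPKM + 1). Nearest to Fgfr2 were Shh, the hedgehog ligand of the hair matrix, at 0.05, then Fzd10 and Celsr2. Nearest to Fgf22 were Fam83c at 0.04, Acp7 and Tgm1, the transglutaminase of the cornified envelope. Ephb3 was nearest to Fgfr3 at 0.03, followed by Cyp4f39 and Tmem184a. Fgf5 had Lce1a2 at 0.09, Stox1 and Spink5, a protease inhibitor of the upper epidermis.

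Fgf1, Fgf2 and Fgf7 had other neighbours. Fgf1 was closest to Acss1 at 0.01, Gsta4 and Rbp4, the retinol carrier secreted by fat and liver. Trib3 was closest to Fgf2 at 0.01, with Lrrc3b and Aldh1a7 behind it. Fgf7 had no gene within 0.1, its closest being Aim2 at 0.10, Rbp7 and Emp3. By contrast 137 genes lay within 0.1 of Fgf2, 18 of Fgf1, 14 of Fgfr3, 8 of Fgf22, 7 of Fgfr2 and 2 of Fgf5. With 4 values per gene, such likeness is a description only. Fgf10, Fgf18 and Fgfr1 spanned less than 1 and were not compared.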

How the data were processed

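Total RNA of microdissected dWAT was sequenced in 4 libraries, 1 per group. The authors deposited FPKM per gene on GRCm38. Per the labels, bcl2fastq and TopHat2 were used, and the quantifier, annotation and strand setting are not given in the sources used here. A listed length accompanies each gene, and 97.0% of these lengths are multiples of 3, as in coding lengths, but the FPKM steps followed full transcript lengths. The steps were read from 4399 genes with 1 annotated transcript (GENCODE M21, 220 bp taken off) and gave 16900000 to 22700000 fragments per library. Fragments of a gene were computed from its shortest matching transcript, and for Fgf22 from its coding length, so the Clopper-Pearson intervals (95%) are approximate. The floor was 3 fragments.

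Groups were taken from the titles. OTD was compared with YTD, OAD with YAD, YAD with YTD and OAD with OTD, as differences of log2(FPKM + 1) with a threshold of 1. There is no test and no p-value, because each group is 1 library. The calculation was tested on simulated data. Alternatives were pseudocounts of 0.1 and 0.01, TPM, the median of ratios, rescaling without mitochondrial, muscle and hair genes, a minimum of 1 FPKM and a threshold of 1.5-fold. Rescaled libraries were brought back to the mean level of the deposited ones.

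Members, gene lists and rules were chosen with earlier results of these data known, and the study itself had displayed some of these ligands, so nothing here is independent support for them. Named genes were all members, list genes past the fold or otherwise those with the highest means, the 2 most abundant markers of a list, and the 3 nearest profiles of members spanning at least 1. The results of marker lists not described in the report are given in the closing section, except for 1 list that is not reported here. Promoters came from RefSeq (GRCm38.p6). Python 3.11.15, numpy 2.4.6, pandas 2.3.3, scipy 1.17.1 and matplotlib 3.10.9 were used.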

Additional observations from a re-analysis of the deposited data

Results flagged for a closer look

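Fgf7 differed with age in opposite directions in the phases. It was higher in OTD than in YTD (log2 difference 0.96, interval of the ratio 1.79 to 2.73) and lower in OAD than in YAD (log2 difference -1.02, interval 0.311 to 0.506). The anagen difference minus the telogen difference was -1.98 on the log2 scale. This difference between the phases was not tested, since each group was 1 library, and the signs held under all 6 alternatives for each comparison. Fibroblast markers also had opposite signs, with medians of 0.35 in telogen and -0.58 in anagen, as had macrophage markers (0.44 and -0.24), and their part in the Fgf7 values was not tested.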

How the results depend on the processing

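No paired analysis was possible because each group held 1 library, and leaving out a replicate was impossible for the same reason. The number of members past the fold was within 1.5 times the reported one in 22 of 28 alternatives. In telogen it rose from 0 with age to 2 with a pseudocount of 0.1 and to 2 with 0.01 (Fgf7, and Fgf22 with both values under the floor), to 1 (Fgf7) after leaving out mitochondrial, muscle and hair genes, and to 2 (Fgf7 and Fgfr2) with a threshold of 1.5-fold. In anagen it fell from 2 to 1 (Fgf7) with TPM and to 1 after leaving out those genes. Fgf10 passed the fold with age in anagen with pseudocounts of 0.1 and 0.01. In young mice, Fgf7 and Fgf10 passed it between phases with TPM. Of 14 member differences past the fold, 14 kept their sign and 11 stayed past it under every alternative. Signs turned only for differences within the fold: Fgf18 in both comparisons that use YAD, Fgfr1 between phases, Fgf2 with age in anagen and Fgfr3 with age in telogen.

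Among all genes, pseudocounts of 0.1 and 0.01 raised the share past the fold with age in telogen from 3.6% to 12.4% and 20%. In anagen they raised it from 1.18% to 6.30% and 13.8%. With a threshold of 1.5-fold the share of all genes past it with age was 15.98% in telogen and 4.97% in anagen. TPM moved the median of all genes by 0.43 in young and 0.30 in old mice between phases and by -0.16 with age in anagen, and the share of higher among all genes past the fold to 82.3%, 76.7% and 36.9%, from 49.1%, 50.8% and 61.5%. Leaving out mitochondrial, muscle and hair genes moved this share to 66.9% with age in telogen (from 46.3%), 47.5% with age in anagen and 62.2% between phases in young mice. Among the members, depth limits Fgf18 and, in telogen, Fgf5 and Fgf22, with about 20 fragments or fewer.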

Other observations

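Marker lists not described above moved as follows. Macrophage markers, led by Lyz2 and C1qa, were higher in OTD than in YTD in 7 of 8 and lower in OAD than in YAD in 8 of 8, with medians of 0.44 and -0.24. Melanocyte markers, led by Mlana and Pmel, were lower in OAD than in YAD in 5 of 5, with a median of -0.80, and past the fold between phases in 5 of 5 in both ages. Markers of cycling cells, led by Birc5 and Cdk1, were past the fold between phases in 5 of 5 in both ages, with medians of 3.44 and 3.45. The 3 T cell markers measured, among them Cd3d and Cd3e, summed to less than 1 FPKM in each library, with Cd3d and Cd3g at 0 in YAD. Between old and young in anagen, endothelial markers were higher in OAD in 8 of 8, with a median of 0.30, and skeletal muscle markers in 6 of 8, with a median of 0.50.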
